A study of Mus musculus with 58 samples.

Results

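The genes described here encode the nuclear subunits of complexes III, IV and V of the mitochondrial respiratory chain, together with cytochrome c. They were chosen by symbol: all genes whose symbol starts with Uqcr, with Cox followed by a digit of 4 to 8, or with Atp5, plus Cyc1 and Cycs, provided that the gene lies on probe sets annotated with 1 symbol only. This gave 43 of the 18820 genes of the table, namely 8 of complex III, 1 for cytochrome c, 17 of complex IV and 17 of complex V. RNA was measured in m. extensor digitorum longus (EDL, a fast hindlimb muscle), m. soleus (SOL, a slow one) and heart (HRT) of young male CD2F1 mice (BALB/c x DBA/2) on Affymetrix whole-transcript arrays. Tumour bearing mice trained with whole-body vibration (T + WBV) numbered 5 in EDL, 5 in SOL and 3 in HRT. Untrained tumour bearing mice (T), trained control mice (C + WBV) and untrained control mice (C) numbered 6 each in EDL, 6 each in SOL and 3 each in HRT. Tumour bearing mice received C26 cells, a mouse colon carcinoma line, under the skin of the flank and control mice a sham injection of salt solution. Training meant 15 min of vibration per day at 45 Hz and 1.0 g, and all mice were killed at day 19. The 58 arrays come from 23 mice, and EDL, SOL and HRT of 1 mouse share that animal.

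Complex III passes electrons from ubiquinol to cytochrome c, complex IV passes them from cytochrome c to oxygen, and complex V, the ATP synthase, makes ATP from the proton gradient that the chain builds up. Fast glycolytic muscle holds fewer mitochondria than slow muscle, and heart is the richest of the 3. Some subunits of complex IV have a form used in heart and skeletal muscle and another used in most tissues, and the ring of c subunits of complex V is encoded by 3 genes that give the same mature protein. Cox7c and Uqcrc2 share each of their probe sets with another symbol and were not analysed here, nor were the subunits encoded in mitochondrial DNA, 0 of 13 of which were found among the genes with a symbol of their own.

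Values are log2 intensities, so a difference of 1 means a doubling or halving. Array medians ran from 4.52 to 4.60. The labelled tissues carried their own fibre genes. The summed level of 7 fast fibre genes was 14.78 to 15.46 in EDL and 6.52 to 7.04 in HRT, that of 6 slow fibre genes 14.50 to 14.88 in SOL and 8.87 to 11.40 in EDL, and that of 8 heart genes 14.97 to 15.36 in HRT and 8.52 to 10.76 in EDL (log2 of summed intensities over all groups). The fast and slow lists are not particular to 1 tissue. The fast fibre sum was 13.68 to 14.35 in SOL and the slow fibre sum 14.05 to 14.14 in HRT, while the heart sum was 9.15 to 9.66 in SOL. A gene was called changed where limma gave a Benjamini-Hochberg adjusted p under 0.01, with the adjustment made across 18820 genes. Counts at an unadjusted p under 0.05 are given for the 43 genes alone, as the share of all genes under it was not counted. In a piece of muscle, less RNA per fibre and fewer mitochondria-rich cells cannot be told apart.

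In EDL, most of the 43 genes were lower in T than in C. Of them, 33 fell and 0 rose in T against C, where 11.6% of all genes were called lower and 10.7% higher. The median log2 difference of the 43 genes was -0.51, beside -0.03 over all genes. The count was 32 to 34 when any 1 array was left out. In 26 of the 43 genes all 6 T arrays lay below all 6 C arrays, a pattern that 8.39% of all genes showed in that direction, while 0 had all T arrays above (7.05% of all genes). Genes called lower in all 3 tissues numbered 4, which were Uqcrc1, Uqcrfs1, Cyc1 and Cox7a1, and 10 genes were called in none. Over all genes these shares were not counted. No more than the 3.04% of all genes called lower in HRT can be lower in all 3.

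Markers of other cells moved in the same muscles. Of 5 neutrophil genes 3 were called higher in T than in C in EDL, and their summed level was 6.11 to 8.44 in T and 5.51 to 6.01 in C. Of 5 macrophage genes 1, Cd163, was called higher in EDL, with sums of 7.88 to 9.69 in T and 7.60 to 8.20 in C. For 5 endothelial genes the sums overlapped, at 10.56 to 11.00 in T and 10.64 to 10.83 in C, but 1 gene was called lower (Kdr, -1.06) and 1 higher (Pecam1, 0.44). The fast fibre genes summed to 14.78 to 15.33 in T and 15.35 to 15.46 in C, and 4 of 7 were called lower, with a median difference of -0.24. What part these shifts have in the values of the respiratory genes was not tested.

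**Figure D1:**
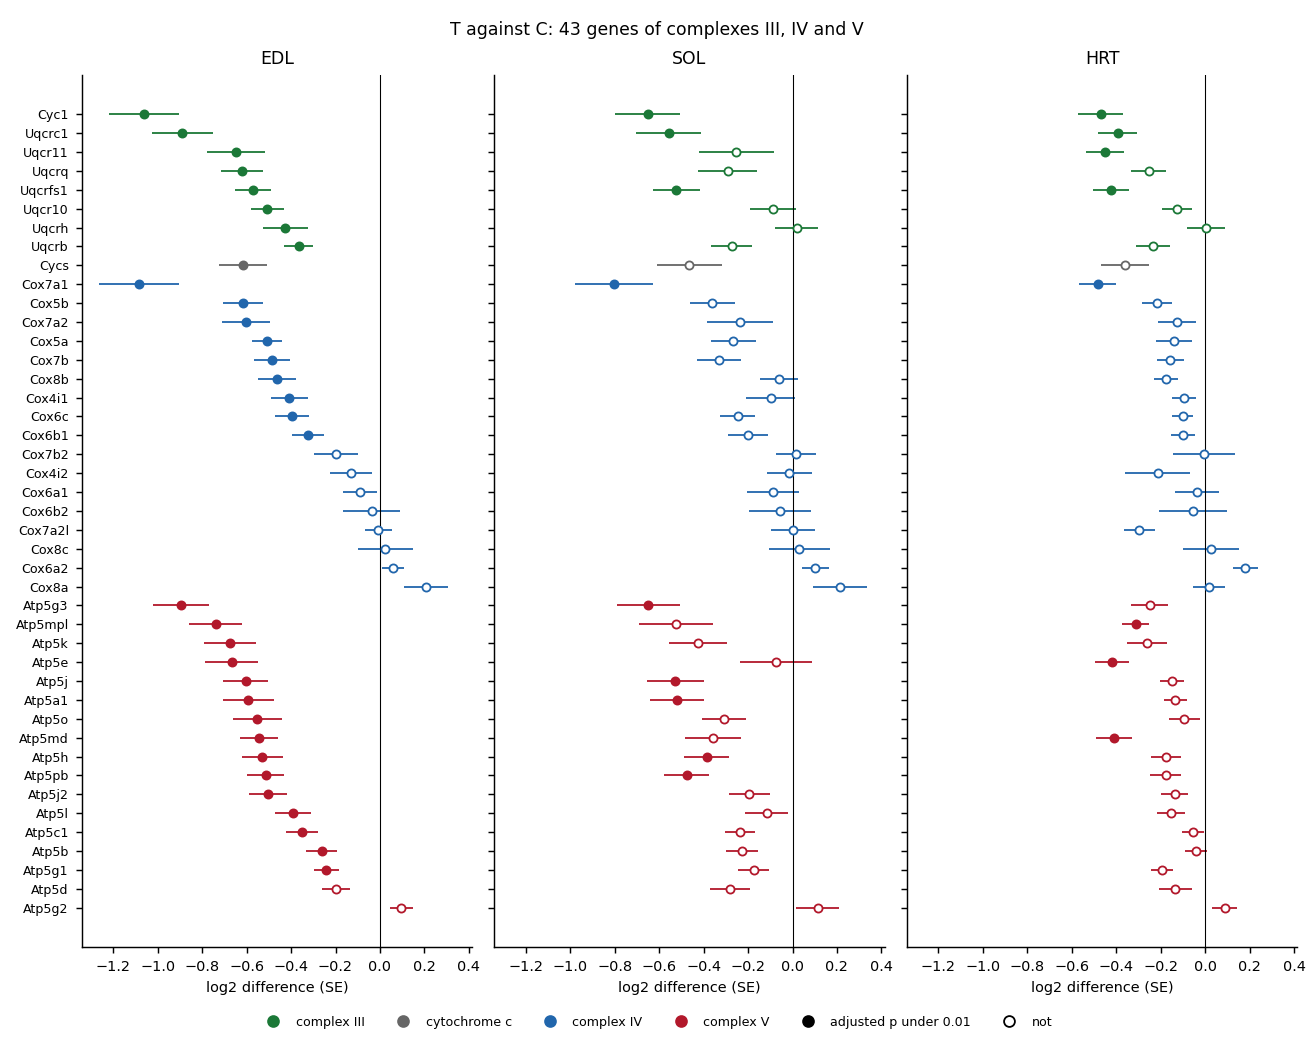
Log2 difference of T minus C with its standard error for each of the 43 genes (rows, grouped and coloured by complex and ordered by the difference in EDL) in EDL, SOL and HRT. Filled symbols mark an adjusted p under 0.01, which 33 genes reached in EDL, 9 in SOL and 8 in HRT, all of them to the left of 0.

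Complex III fell as a whole in EDL. All 8 of its genes were called lower in T, with differences of -0.37 to -1.06. Cyc1, which encodes cytochrome c1, the haem subunit that hands electrons to cytochrome c, had the widest gap: its level was 8.66, 9.25 and 9.98 (lowest, median and highest) in T and 10.20, 10.30 and 10.40 in C. No T array reached the lowest C array, and the mean difference was -1.06 ± 0.16 (SE, n = 6 each, limma adjusted p = 1.77e-05), which leaves 48.0% of the intensity in C. Uqcrfs1, the Rieske iron-sulphur protein that takes the first electron from ubiquinol, stood at 9.51, 9.66 and 9.98 in T and 10.06, 10.26 and 10.34 in C, a difference of -0.57 ± 0.08 (adjusted p = 1.37e-05). Here too the groups did not overlap, although replicate 3 of T, at 9.98, lay well above the other 5 T arrays.

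Small accessory subunits of complex III followed the catalytic ones. Uqcr10, the subunit that sits beside cytochrome c1, was at 8.95, 9.05 and 9.37 in T and at 9.49, 9.60 and 9.75 in C. Its difference was -0.51 ± 0.07 (adjusted p = 1.6e-05). Uqcr11 was at 8.50, 8.65 and 9.33 in T and at 9.22, 9.40 and 9.45 in C, so that 1 T array overlapped the C range. The difference was -0.65 ± 0.13 (adjusted p = 0.000419). For Uqcrc1, the core 1 protein, the 6 T arrays spread from 9.62 to 10.90 and the 6 C arrays from 11.05 to 11.28, with a difference of -0.89 ± 0.14. Uqcrh, the hinge protein, is measured by a bright and a dim probe set, and its mean difference of -0.43 ± 0.10 rests on -0.49 in the bright and -0.36 in the dim one. The dim one was not called on its own (limma adjusted p = 0.0767). The bright and the dim one had opposite signs in SOL (-0.19 and 0.23) and in HRT (-0.03 and 0.04). Cytochrome c itself (Cycs), the mobile carrier between complexes III and IV, was at 8.43, 8.95 and 9.40 in T and at 9.43, 9.56 and 9.67 in C, a difference of -0.61 ± 0.11 (adjusted p = 9.68e-05) with no overlap. Cycs is the mean of 3 probe sets, of which the dimmest was not called on its own (-0.49, limma adjusted p = 0.0638).

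Complex IV split into genes that fell and genes that did not. In EDL 9 of its 17 genes were called lower, with a median of -0.32 over the 17. Among them was Cox5a, a subunit on the matrix side of the enzyme, at 9.54, 9.63 and 9.86 in T and 10.10, 10.17 and 10.23 in C, a difference of -0.51 ± 0.07 and the smallest adjusted p of all 43 genes in EDL (7.73e-06). Cox5b, its neighbour that binds zinc, was at 10.20, 10.36 and 10.82 in T and 10.92, 11.07 and 11.09 in C, a difference of -0.62 ± 0.09 (adjusted p = 1.38e-05). All T arrays lay below all C arrays for both. Cox5a, Cox5b and Cox6c, for which no second form is measured, were all called, with -0.40 to -0.62.

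Of the 8 genes of complex IV that were not called in EDL, 3 are forms known from testis, Cox6b2, Cox7b2 and Cox8c, whose values of 3.96 to 4.90, 1.74 to 2.47 and 3.41 to 4.28 over the EDL arrays were the lowest of the 17. Cox4i2, the form of subunit 4 known from lung, was next, at 4.74 to 5.26. The other 4 were brighter: Cox6a1, Cox6a2, Cox8a and Cox7a2l. Cox7a2l, which helps complexes III and IV to join in supercomplexes, was at 8.87, 9.01 and 9.16 in T and 8.93, 9.03 and 9.07 in C, and its difference of -0.01 had a confidence interval from -0.12 to 0.11 in EDL.

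Tissue forms of complex IV changed unequally. The comparison asks whether a form used in heart and muscle and its partner used in most tissues moved alike, and takes the ratio of both within each array. The promoter windows of the subunit 7a and subunit 8 pairs, the pairs of complex IV whose ratios passed the test in EDL and SOL, are printed with that of Atp5g3, the c ring gene that fell most, from 250 bases before to 50 after the start of the gene (RefSeq, GRCm38.p6). Cox7a1 is at chr7:30183921-30184220 on the plus strand, Cox7a2 at chr9:79759804-79760103, Cox8b at chr7:140900397-140900696, Cox8a at chr19:7217567-7217866 and Atp5g3 at chr2:73911277-73911576, the last 4 on the minus strand and all written 5′ to 3′ along the gene. Capitals mark matches on either strand to 4 motifs: the palindromic motif of NRF1 (by name only), AAGGTCA of the oestrogen-related receptors, CCGGAAG of GABP, and the E-box CAGCTG.
Cox7a1: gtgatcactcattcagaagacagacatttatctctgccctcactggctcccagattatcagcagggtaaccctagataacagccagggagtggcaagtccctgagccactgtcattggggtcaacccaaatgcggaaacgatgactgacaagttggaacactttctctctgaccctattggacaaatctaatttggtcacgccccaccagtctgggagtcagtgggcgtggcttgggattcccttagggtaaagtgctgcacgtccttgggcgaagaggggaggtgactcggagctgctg
Cox7a2: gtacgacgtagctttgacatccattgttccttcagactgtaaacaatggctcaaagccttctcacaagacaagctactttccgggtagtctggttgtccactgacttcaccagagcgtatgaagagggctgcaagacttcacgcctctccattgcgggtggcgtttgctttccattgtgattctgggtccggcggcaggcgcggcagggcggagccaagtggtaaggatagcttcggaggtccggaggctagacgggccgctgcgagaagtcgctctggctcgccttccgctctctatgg
Cox8b: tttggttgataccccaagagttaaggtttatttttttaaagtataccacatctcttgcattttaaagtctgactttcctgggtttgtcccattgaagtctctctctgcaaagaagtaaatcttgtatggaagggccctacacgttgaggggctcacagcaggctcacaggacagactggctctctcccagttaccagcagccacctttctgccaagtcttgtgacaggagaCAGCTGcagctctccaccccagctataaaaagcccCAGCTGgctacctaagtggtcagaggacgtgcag
Cox8a: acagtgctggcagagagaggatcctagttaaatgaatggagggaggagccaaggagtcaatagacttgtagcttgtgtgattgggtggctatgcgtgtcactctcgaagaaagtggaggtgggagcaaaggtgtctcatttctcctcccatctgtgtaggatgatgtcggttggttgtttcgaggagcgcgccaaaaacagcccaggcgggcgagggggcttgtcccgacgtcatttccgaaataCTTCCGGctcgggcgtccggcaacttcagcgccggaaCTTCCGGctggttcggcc
Atp5g3: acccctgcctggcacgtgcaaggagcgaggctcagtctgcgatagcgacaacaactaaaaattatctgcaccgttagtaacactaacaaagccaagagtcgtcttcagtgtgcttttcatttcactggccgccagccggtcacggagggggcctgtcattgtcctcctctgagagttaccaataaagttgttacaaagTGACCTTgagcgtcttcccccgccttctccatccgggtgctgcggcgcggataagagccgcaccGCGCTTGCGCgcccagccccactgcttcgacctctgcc
The muscle form Cox8b holds 2 E-box matches and its partner Cox8a 2 GABP matches, whereas the windows of Cox7a1 and Cox7a2 hold none of the 4 motifs. Atp5g3 holds 1 NRF1 and 1 oestrogen-related receptor match.

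Windows were at hand for 33 of the 43 genes, of which 26 had fallen in EDL. The NRF1 motif was in 8 of them (24.2%, against 4.6% of all 32851 windows), the GABP motif in 11 (33.3%, against 8.86%), the oestrogen-related receptor motif in 4 (12.1%, against 4.72%) and the E-box in 2 (6.06%, against 16.3%). The NRF1 matches lie in genes that fell in EDL, such as Uqcrc1 and Atp5k, and also in 2 that did not, Cox6a1 and Atp5g2. The 4 motifs were searched independently, and a match describes the sequence only.

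For subunit 7a the muscle form fell further. Cox7a1 was at 10.14, 10.81 and 11.69 in T and 11.77, 11.92 and 11.97 in C in EDL, a difference of -1.08 ± 0.18 (limma adjusted p = 4.83e-05) that leaves 47.1% of the intensity in C. All 6 T arrays were below the C arrays, but they spread over more than 1 log2 unit where the C arrays lay close together. Its partner Cox7a2 was at 8.62, 8.74 and 9.20 in T and 9.28, 9.37 and 9.51 in C, a difference of -0.60 ± 0.11 (adjusted p = 0.000101), also without overlap. The ratio of Cox7a1 to Cox7a2 was lower in T by 0.48 (EDL) and 0.57 (SOL) (exact permutation test, two-sided, n = 6 each, p = 0.0173 and 0.00649, and 0.0303 and 0.0152 adjusted over the 7 pairs of a tissue). In EDL this adjusted p was no longer under 0.05 in 7 of the settings that leave out 1 array, and over all such settings the difference ranged from -0.58 to -0.38. In HRT the ratio fell by 0.36, where 3 arrays against 3 cannot give a p below 0.1, which is the value found.

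For subunit 8 the muscle form fell and its partner did not. Cox8b was at 11.23, 11.42 and 11.83 in T and 11.80, 11.93 and 11.96 in C in EDL, a difference of -0.46 ± 0.09 (limma adjusted p = 0.000186). A single T array, replicate 3, entered the C range. Cox8a was at 8.56, 8.76 and 9.17 in T and 8.36, 8.55 and 8.90 in C, with a difference of 0.21 ± 0.10 that was not called (adjusted p = 0.126). The ratio of Cox8b to Cox8a was lower in T by 0.67 (EDL) and 0.27 (SOL) (exact permutation test, n = 6 each, p = 0.00433 and 0.0173, adjusted 0.0101 and 0.0303). In EDL the adjusted p stayed under 0.05 whichever array was left out, with -0.78 to -0.56. In SOL it was no longer under 0.05 in 6 such settings, with -0.32 to -0.21 over all of them.

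**Figure D2:**
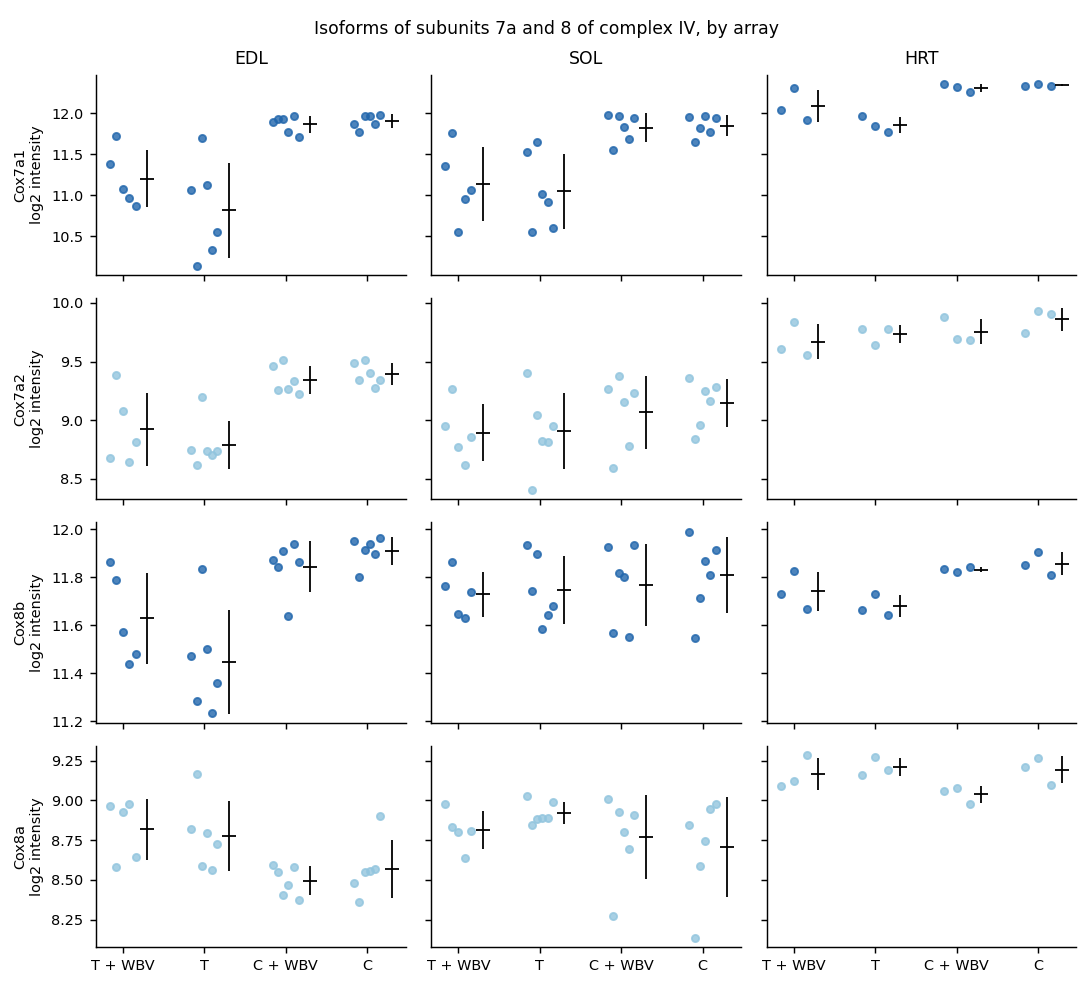
Log2 intensity of Cox7a1, Cox7a2, Cox8b and Cox8a (rows, each with its own axis) in every array of EDL, SOL and HRT, by group, with mean and SD as a cross with a bar. In EDL the 6 T arrays of Cox7a1 spread from 10.14 to 11.69 below the C arrays at 11.77 to 11.97, while Cox8a lies at 8.56 to 9.17 in T and 8.36 to 8.90 in C.

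The third pair of muscle and general forms did not move in this way. Cox6a2, the muscle form of subunit 6a, was at 11.84, 11.92 and 12.04 in T and 11.82, 11.88 and 11.91 in C in EDL, a difference of 0.06 ± 0.05 (adjusted p = 0.403) with an interval of -0.04 to 0.16. After a second quantile normalization within EDL the same gene was called higher, by 0.23 (adjusted p = 0.0062), as was Atp5g2. Cox6a1 was at 7.31, 7.54 and 7.62 in T and 7.41, 7.58 and 7.72 in C. It averages 2 probe sets, whose T minus C differences had opposite signs in HRT (0.08 and -0.15). The ratio of Cox6a2 to Cox6a1 differed by 0.15 in EDL, 0.19 in SOL and 0.22 in HRT, all higher in T, with adjusted p of 0.123, 0.185 and 0.175 in the exact permutation test. Cox4i1, the general form of subunit 4, was at 9.94, 10.11 and 10.46 in T and 10.46, 10.55 and 10.59 in C in EDL (-0.41 ± 0.08, limma adjusted p = 0.000479), and Cox6b1, that of subunit 6b, at 11.00, 11.24 and 11.53 in T and 11.44, 11.57 and 11.67 in C (-0.32 ± 0.07, adjusted p = 0.00116). The ratios of Cox4i2 to Cox4i1 and of Cox6b2 to Cox6b1 were higher in T by 0.28 and 0.29 in EDL with adjusted p of 0.0606 and 0.0909 (exact permutation test), and both second forms are dim.

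Complex V fell in nearly all its parts in EDL. Of its 17 genes 15 were called lower, with a median of -0.53. In the F1 head, which holds the catalytic sites, 4 of 5 genes were called (Atp5a1, Atp5b, Atp5c1 and Atp5e, with -0.26 to -0.67), and Atp5d had -0.20 (adjusted p = 0.0185). The stalk that holds the head in place had all 4 genes called within a narrow range of -0.60 to -0.51. The small membrane subunits, which take part in pairing the synthases at the cristae, had 5 of 5 called, from -0.74 for Atp5mpl to -0.39 for Atp5l. The gene Atp5l is the mean of 6 probe sets and Atp5h of 4, some of which may read near-identical copies, so these 2 values are less certain. The same holds for Atp5md, Atp5g2, Uqcrb, Uqcrh and Cycs, which also average several probe sets.

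Examples of the stalk and the membrane part were as tight in C as those of complex III. Atp5pb, subunit b of the stalk, was at 10.48, 10.72 and 11.07 in T and 11.19, 11.25 and 11.31 in C, a difference of -0.51 ± 0.08 (adjusted p = 3.62e-05). Atp5md, also known as DAPIT, was at 9.99, 10.11 and 10.50 in T and 10.55, 10.75 and 10.76 in C, a difference of -0.54 ± 0.09 (adjusted p = 3.34e-05). In both the groups were apart. Atp5e, the epsilon subunit of the head, was at 8.60, 8.76 and 9.30 in T and 9.37, 9.44 and 9.71 in C, a difference of -0.67 ± 0.12 (adjusted p = 0.000117), with no T array in the C range.

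The 3 genes of the c ring behaved in 3 ways. Atp5g3 was at 9.88, 10.32 and 10.89 in T and 11.12, 11.24 and 11.36 in C in EDL, a difference of -0.89 ± 0.13 (adjusted p = 1.12e-05) that leaves 53.8% of the intensity in C. Atp5g1 was at 12.23, 12.36 and 12.48 in T and 12.53, 12.60 and 12.70 in C, a difference of -0.24 ± 0.06 (adjusted p = 0.00155), so the groups were again apart although the step was small. The highest value on any array was 13.55. Whether the high level of Atp5g1 narrowed its difference, and so its ratios to the other c ring genes, was not tested. Atp5g2 was at 11.11, 11.20 and 11.26 in T and 11.08, 11.10 and 11.13 in C, a difference of 0.10 ± 0.05 that was not called (adjusted p = 0.185). Its 3 probe sets gave 0.09 to 0.11. After a second quantile normalization within EDL, Atp5g2 was called higher by 0.18 (limma adjusted p = 0.0079) and Atp5g1 was no longer called.

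Ratios among the c ring genes differed between T and C in both muscles. The ratio of Atp5g1 to Atp5g3 was higher in T by 0.65 (EDL) and 0.47 (SOL) (exact permutation test, two-sided, n = 6 each, p = 0.00216 and 0.00433, adjusted 0.00758 and 0.0152). The ratio of Atp5g1 to Atp5g2 was lower in T by 0.34 in EDL and 0.29 in SOL (same exact test, p = 0.00216 and 0.00433, adjusted 0.00758 and 0.0152). In EDL the T and C arrays did not overlap in either ratio. Every adjusted p stayed under 0.05 when 1 array was left out, in EDL and SOL. In HRT the ratio to Atp5g2 fell by 0.28 (exact permutation p = 0.1, the lowest possible) and that to Atp5g3 differed by 0.06 (p = 0.3).

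**Figure D3:**
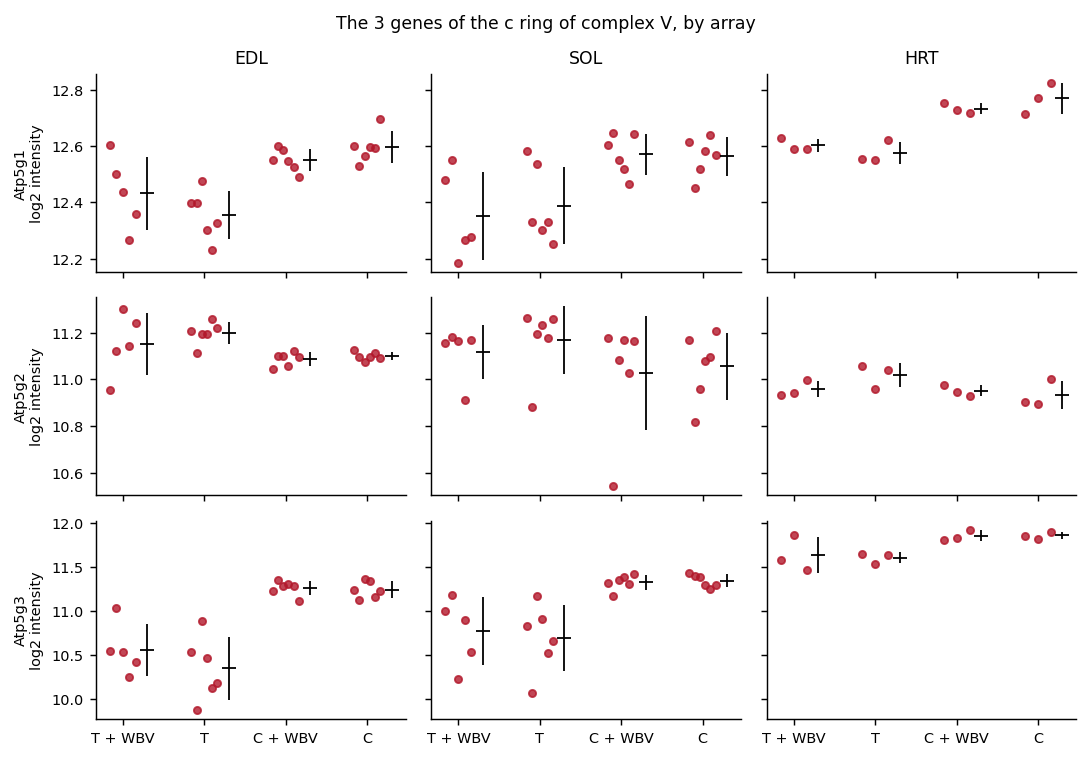
Log2 intensity of Atp5g1, Atp5g2 and Atp5g3 (rows, each with its own axis) in every array by group, with mean and SD as a cross with a bar. The EDL arrays of Atp5g3 lie at 9.88 to 10.89 in T and 11.12 to 11.36 in C, while those of Atp5g2 lie at 11.11 to 11.26 in T and 11.08 to 11.13 in C.

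In SOL fewer of these genes passed the threshold. Of the 43 genes 9 were lower in T and 0 higher, where 8.66% of all genes were called lower and 5.06% higher, and the median difference was -0.25, beside -0.01 over all genes. They were Uqcrc1, Uqcrfs1 and Cyc1 of complex III, Cox7a1 of complex IV, and Atp5a1, Atp5g3, Atp5pb, Atp5h and Atp5j of complex V. The count rose to 14 without replicate 1 of T and to 19 without replicate 3 of T, and to 21 in a fit of all 58 arrays with the mouse as a random block. Of the 43 genes, 6 had all T arrays below all C arrays, a pattern of 6.68% of all genes.

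Uqcrfs1 had the smallest adjusted p of the 43 genes in SOL (0.000729). It was at 9.34, 9.68 and 10.09 in T and 10.21, 10.23 and 10.31 in C, a difference of -0.52 ± 0.10 without overlap. Cox7a1 was at 10.55, 10.97 and 11.65 in T and 11.64, 11.88 and 11.97 in C, where the highest T array lay just above the lowest C array, with -0.80 ± 0.17 (adjusted p = 0.0015). Atp5pb was at 10.41, 10.83 and 11.07 in T and 11.12, 11.16 and 11.53 in C, with -0.48 ± 0.10 (adjusted p = 0.0014). Other genes that fell in EDL showed little in SOL: Cox8b was at 11.59, 11.71 and 11.94 in T and 11.55, 11.84 and 11.99 in C (-0.06 ± 0.08), and Uqcr10 at 9.13, 9.39 and 9.62 in T and 9.23, 9.51 and 9.65 in C (-0.09 ± 0.10).

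In HRT 8 genes were lower in T and 0 higher, where 3.04% of all genes were called lower and 2.7% higher, and the median difference was -0.15, beside 0.00 over all genes. These were Uqcrc1, Uqcrfs1, Cyc1 and Uqcr11, Cox7a1, and Atp5e, Atp5md and Atp5mpl. The calls were less stable than in EDL: leaving out 1 of the arrays gave 0 to 4, with 0 without replicate 2 or 3 of T, 4 without replicate 1 of T, 1 without replicate 2 or 3 of C and 3 without replicate 1 of C, and a fit with 1 prior variance gave 0. Among the 43 genes 27 had all 3 T arrays below all 3 C arrays, which 16.3% of all genes showed in that direction, and 1, Cox6a2, had all 3 above (15.7% of all genes).

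Cox7a1 had the smallest adjusted p in HRT. It was 11.96, 11.84 and 11.77 in the T hearts and 12.33, 12.36 and 12.34 in the C hearts, a difference of -0.48 ± 0.08 (limma adjusted p = 0.00204), and the 3 T hearts lay well below the narrow C range. Uqcr11 was 9.41, 9.24 and 9.29 in T and 9.69, 9.77 and 9.84 in C (-0.45 ± 0.09, adjusted p = 0.00387). Atp5e was 9.06, 8.96 and 8.92 in T and 9.37, 9.42 and 9.41 in C (-0.42 ± 0.08, adjusted p = 0.00305). Each of these genes was lower in all 3 T hearts than in any C heart. Cox6a2 ran the other way, at 11.79, 11.73 and 11.78 in T and 11.60, 11.60 and 11.55 in C, a difference of 0.18 ± 0.06 that missed the threshold (adjusted p = 0.0468). Cox7a2l was 9.45, 9.36 and 9.32 in T and 9.63, 9.73 and 9.66 in C, a difference of -0.30 ± 0.07 (adjusted p = 0.0128).

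Markers of blood, immune and heart muscle cells also differed between these hearts. The summed level of 5 macrophage genes was 10.36 to 10.57 in T and 9.26 to 9.60 in C with 3 genes called, that of 5 neutrophil genes 7.50 to 8.43 in T and 5.67 to 6.27 in C with 3 called. The sum of 2 erythroid genes was 6.31 to 8.47 in T and 8.67 to 9.66 in C and that of 5 adipocyte genes 7.62 to 8.16 in T and 7.73 to 9.64 in C, with 0 called in either. For 2 brown adipocyte genes the sums overlapped, at 7.34 to 8.14 in T and 7.24 to 9.13 in C. Of these, Ucp1 averaged 4.34 in T and 6.39 in C, and Cidea 7.54 and 7.45. The 5 endothelial genes summed to 11.32 to 11.37 in T and 11.45 to 11.65 in C, with 2 called lower. The heart genes themselves summed to 14.97 to 15.18 in T and 15.27 to 15.36 in C, without overlap, and 1 of 8 was called lower (Myl4), with a median difference of -0.27. They moved unequally: Myl7 averaged 8.39 in T and 9.87 in C, and Tnnt2 12.97 and 12.99. Myh7, of the slow fibre list, averaged 10.42 in T hearts and 7.85 in C hearts. In SOL the neutrophil sum was 6.49 to 7.73 in T and 5.61 to 5.93 in C with 4 of 5 genes called, and the macrophage sum was 8.52 to 9.08 in T and 8.23 to 8.70 in C with 0 of 5 called. The fast fibre genes summed to 13.71 to 13.92 in T and 13.98 to 14.12 in C in SOL, again without overlap, and 2 of 7 were called lower, with a median difference of -0.26. The part of these shifts in the respiratory values was not tested.

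Whether the tumour difference itself differed between tissues was tested in 1 fit over all arrays with the mouse as a random block. Of the 43 genes 0 passed 0.01 for SOL minus EDL, HRT minus EDL or HRT minus SOL, while 1.28% of all genes were lower and 0.744% higher in SOL minus EDL, 1.71% lower and 1.79% higher in HRT minus EDL, and 0.574% lower and 1.11% higher in HRT minus SOL. At an unadjusted p under 0.05 the counts were 13, 24 and 4. The nearest in SOL minus EDL were Cox8b, whose fall in SOL was smaller by 0.40 ± 0.10 (adjusted p = 0.0123), and Uqcr10, smaller by 0.42 ± 0.11 (adjusted p = 0.0127). For HRT minus EDL it was Atp5g3, whose difference was less negative in HRT by 0.65 ± 0.20 (adjusted p = 0.0373). A larger fall in EDL than in SOL or HRT was thus not shown for any single gene, and nor was an equal one.

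The size of the fall varied among the mice of 1 group. In each array every gene was set against its average in the C arrays of that tissue, and the median over the 43 genes was taken. In EDL this median was -0.45, -0.62, -0.14, -0.42, -0.62 and -0.56 in T replicates 1 to 6, and it ranged from -0.09 to 0.05 in C. The least lowered, replicate 3, was the T mouse with the highest body mass at day 19, 91.0% of its starting mass, where the other T mice had 77.5 to 82.6%. In SOL the same mouse had -0.03, and replicate 1 of T, at 79.3% of body mass, had 0.02 in SOL but -0.45 in EDL. The other 4 T mice had -0.53 to -0.26 in SOL, against -0.15 to 0.07 in C.

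By complex, the T arrays of EDL had medians of -0.75 to -0.25 for complex III, -0.57 to -0.08 for complex IV and -0.77 to -0.12 for complex V. In HRT the 3 T arrays were close together, at -0.35 to -0.33 for complex III, -0.13 to -0.08 for complex IV and -0.18 to -0.15 for complex V. They come from T mice at 77.5 to 82.6% of body mass, and the T mouse at 91.0% has no heart array. The C arrays of HRT had -0.06 to 0.04, -0.04 to 0.05 and -0.04 to 0.02 for the 3 complexes.

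**Figure D4:**
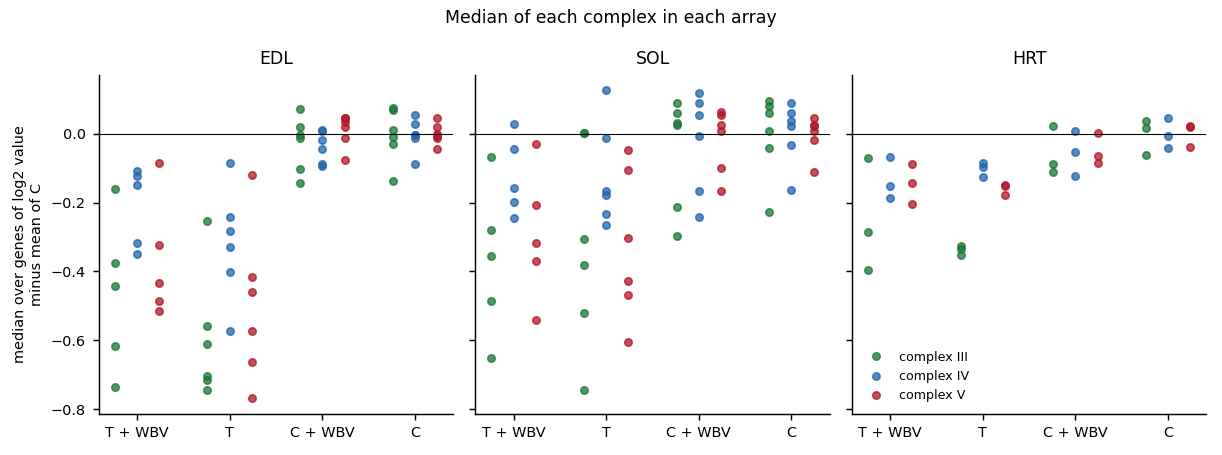
Median over the genes of complex III, IV or V of the log2 difference from the average C array, for each array (points) by group in EDL, SOL and HRT. In EDL all T arrays lie between -0.77 and -0.08 and the C arrays between -0.14 and 0.07, and in SOL 1 T array of complex IV lies at 0.13.

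Trained tumour bearing mice were compared with C, with C + WBV and with T. In T + WBV against C, 18 genes were lower in EDL (5.69% of all genes were), 1 in SOL (2.66%) and 0 in HRT (0.473%), and 0 were higher in each (5.37%, 2.01% and 0.999%). At an unadjusted p under 0.05 the counts were 35, 24 and 25. Both comparisons use the same C mice, so their values are given side by side and not correlated. The median difference from C was -0.35 in T + WBV and -0.51 in T in EDL, -0.25 in both in SOL, and -0.15 in both in HRT.

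The count in EDL depended on single arrays. It was 5 without replicate 4, 10 without replicate 1, 9 without replicate 5 and 26 without replicate 2 of T + WBV, and 11 without replicate 3 of C. In SOL it was 9 without replicate 2 of T + WBV and 0 in most other such settings, and in HRT 15 without replicate 2 of T + WBV. Replicate 2 in all 3 tissues is 1 mouse, which weighed 100.9% of its starting mass, where the other 4 T + WBV mice had 75.9 to 87.8%. Its median over the 43 genes was -0.10 in EDL, -0.02 in SOL and -0.07 in HRT, the least lowered of its group each time. Among the other 4 the order of the medians in EDL did not follow that of body mass: the mouse at 75.9% had -0.29 and the one at 87.8% also -0.29, while those at 82.2% and 83.2% had -0.493 and -0.485.

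Set against C + WBV, a comparison that shares no mouse with that of T and C, T + WBV had 16 genes lower in EDL (6.6% of all genes), 0 in SOL (1.66%) and 0 in HRT (0.478%), and 0 higher (5.27%, 1.94% and 1.01%). At an unadjusted p under 0.05 there were 35, 21 and 17. Cyc1 was 9.64, 10.11, 9.57, 9.04 and 9.37 in the 5 T + WBV arrays of EDL and 10.02, 10.33 and 10.35 (lowest, median and highest) in C + WBV. The array at 10.11 is the mouse named above, and it alone entered the C + WBV range. Cox7a1 was 11.38, 11.72, 11.07, 10.97 and 10.87 in T + WBV and 11.71, 11.91 and 11.96 in C + WBV. Atp5g3 was 10.55, 11.04, 10.54, 10.25 and 10.42 in T + WBV and 11.12, 11.29 and 11.35 in C + WBV, with no overlap.

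No training difference was detectable in these genes. In T + WBV against T and in C + WBV against C, 0 of the 43 genes were called in EDL, SOL or HRT (0% of all genes were), and 0 for the interaction of tumour and training. At an unadjusted p under 0.05 there were 6, 0 and 1 in T + WBV against T, 0, 1 and 1 in C + WBV against C, and 1, 0 and 1 for the interaction. No other fit that was run called any in T + WBV against T or in C + WBV against C. The interaction was tested in the main fit alone. In EDL 39 of the 43 differences of T + WBV minus T were above 0, with a median of 0.14, beside 0.00 over all genes. In SOL and HRT the medians were 0.01 and 0.01. The 43 differences of a tissue rest on the same arrays and are not independent, and the share of all genes above 0 was not counted.

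None of the genes nearest to a training difference passed the threshold. Uqcrb, an accessory subunit of complex III, was 11.03, 11.06 and 11.27 (lowest, median and highest) in T + WBV and 10.74, 10.92 and 11.19 in T in EDL, a difference of 0.17 ± 0.07 (limma adjusted p = 0.867). In HRT Cox7a1 was 12.04, 12.31 and 11.92 in T + WBV and 11.96, 11.84 and 11.77 in T, a difference of 0.23 ± 0.08 (adjusted p = 0.559). In EDL the same gene differed by 0.39 ± 0.19 with an interval of 0.02 to 0.75 before adjustment (adjusted p = 0.867). Its highest T + WBV values, 12.31 in HRT and 11.72 in EDL, came from the mouse at 100.9% of its starting mass. The T + WBV hearts came from mice at 82.2 to 100.9%, and the T hearts from mice at 77.5 to 82.6%. For SOL the nearest was Uqcrh with -0.11 ± 0.10 (adjusted p = 0.928), a gene whose probe sets had opposite signs in T against C in SOL. In C + WBV against C the nearest were Cox6b2 with -0.22 ± 0.13 in EDL and -0.33 ± 0.14 in SOL, and Cox8a with -0.15 ± 0.07 in HRT, all with an adjusted p of 1.00. The 3 C + WBV hearts lay below the 3 C hearts for Cox8a, at 9.06, 9.08 and 8.98 in C + WBV and 9.21, 9.27 and 9.10 in C.

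Among C mice the 43 genes were compared between tissues. Heart differed from both muscles in the same direction: 17 genes were higher and 1 lower in HRT than in EDL (19% and 12.9% of all genes), and 22 higher and 1 lower in HRT than in SOL (15.4% and 9.59% of all genes). Between SOL and EDL, 0 genes were higher and 1 lower in SOL (7.49% and 6.44% of all genes). The median differences were 0.28 for HRT minus EDL, 0.35 for HRT minus SOL and -0.04 for SOL minus EDL, beside -0.04, -0.01 and -0.01 over all genes. Without replicate 2 or 3 of the C hearts the count of genes higher than in EDL was 9, and without any 1 C heart that of genes higher than in SOL was 12 to 14. Using only the 15 arrays of C mice gave 29 for HRT against EDL. The sum of 2 brown adipocyte genes was 7.24 to 9.13 in C hearts, 5.60 to 6.16 in SOL and 4.53 to 4.86 in EDL. What part such cells have in these tissue differences was not tested.

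Cox4i1 had one of the widest heart steps in complex IV. It was 11.07, 11.08 and 11.18 in order of size in the C hearts, 10.08, 10.44 and 10.49 (lowest, median and highest) in SOL and 10.46, 10.55 and 10.59 in EDL, so hearts lay above all muscles (0.58 above EDL, adjusted p = 6.84e-06, and 0.74 above SOL, adjusted p = 6.15e-08). Cox7a2l was 9.63, 9.73 and 9.66 in the C hearts, 9.09, 9.12 and 9.21 in SOL and 8.93, 9.03 and 9.07 in EDL, with 0.66 above EDL (adjusted p = 6.31e-09). Cox8a, the general form of subunit 8, was 9.21, 9.27 and 9.10 in the C hearts and 8.36, 8.55 and 8.90 in EDL, 0.65 higher (adjusted p = 1.4e-05), while its muscle partner Cox8b was 11.85, 11.91 and 11.81 in the C hearts and 11.80, 11.93 and 11.96 in EDL and was not called.

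The 1 gene lower in heart was the same in both comparisons. Cox6a2, the muscle form of subunit 6a, was 11.60, 11.60 and 11.55 in the C hearts, 11.81, 11.97 and 12.07 in SOL and 11.82, 11.88 and 11.91 in EDL. Its heart level was lower, with a difference of -0.28 from EDL (adjusted p = 3.7e-05) and of -0.37 from SOL (adjusted p = 2.83e-07), with no heart in the range of either muscle. Its partner Cox6a1 was 7.92, 8.14 and 7.94 in the C hearts and 7.41, 7.58 and 7.72 in EDL, 0.43 higher (adjusted p = 0.00123). The 1 gene that set SOL apart from EDL was Atp5e, at 8.45, 9.05 and 9.26 in SOL and 9.37, 9.44 and 9.71 in EDL (-0.54, adjusted p = 0.00086), again without overlap.

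**Figure D5:**
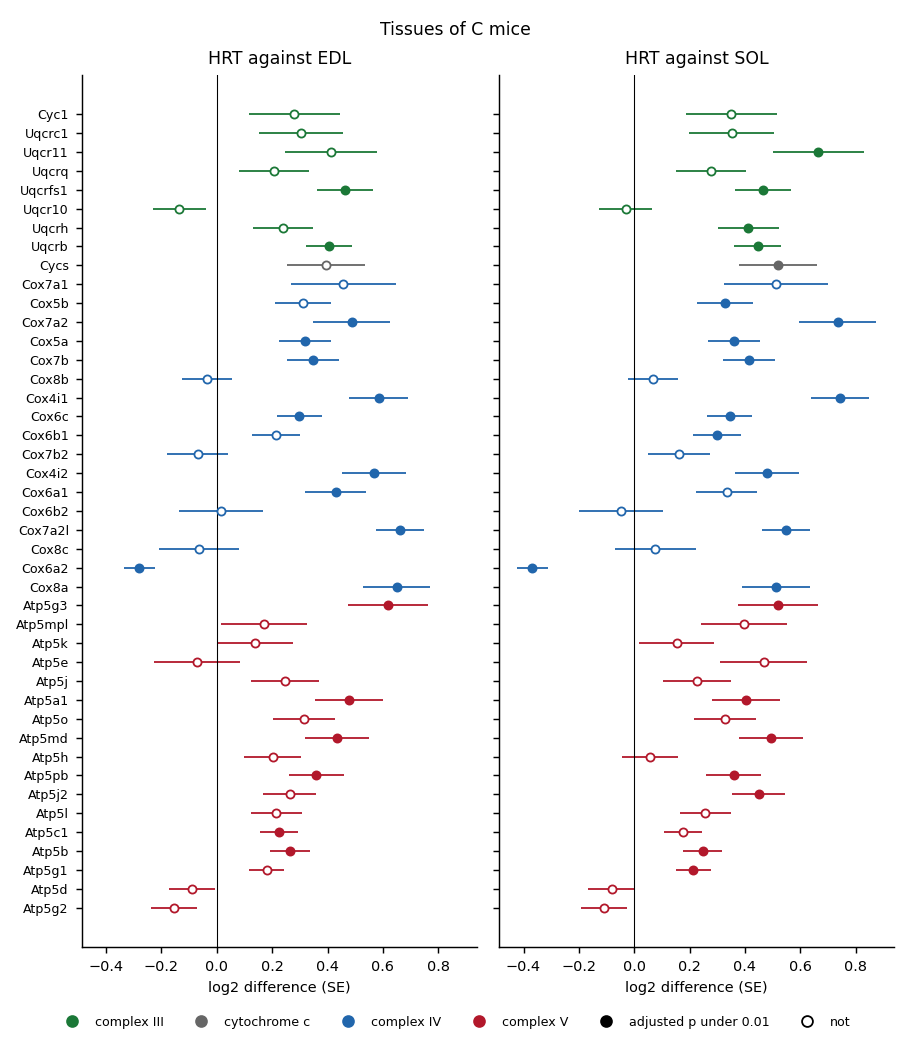
Log2 difference of HRT minus EDL and of HRT minus SOL in C mice with its standard error for each of the 43 genes (rows, ordered as in the plot of tumour differences). Filled symbols mark an adjusted p under 0.01: 17 genes lie to the right of 0 and Cox6a2 to the left for EDL, and 22 to the right and Cox6a2 to the left for SOL.

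Other genes of the respiratory chain fell with these in the comparison of T with C. Of 34 measured subunits of complex I, 33 were lower in EDL, 12 in SOL and 6 in HRT, with medians of -0.60, -0.37 and -0.25, and of the 4 subunits of complex II 4, 3 and 1 were. Of all genes 11.6% were called lower in EDL, 8.66% in SOL and 3.04% in HRT. The largest falls in EDL among complex I genes were -1.001 for Ndufs1 and -0.98 for Ndufv3, an iron-sulphur subunit and a small flavoprotein subunit. Sdhd, a membrane anchor of complex II, fell by 0.82 in EDL, 0.77 in SOL and 0.47 in HRT. None (0) of these genes was called higher in any tissue, where 10.7% (EDL), 5.06% (SOL) and 2.7% (HRT) of all genes were. The mean of Ndufa7, of complex I, was 8.21 in T and 7.84 in C in SOL, and 8.25 and 8.23 in EDL. The subunit Ndufa4, which is now counted with complex IV, and Atpif1, the inhibitor of the ATP synthase, fall outside the symbol rule and gave -0.55 ± 0.10 and -0.67 ± 0.13 in EDL, both called.

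Of 31 assembly factors of complexes III, IV and V, 20 were lower in EDL (11.6% of all genes were), 16 in SOL (8.66%) and 4 in HRT (3.04%), and 0 higher (10.7%, 5.06% and 2.7%). Taco1, which activates translation of the mitochondrial Cox1 message, had the largest of these falls in EDL at -1.32 (limma adjusted p = 2.03e-05), with -1.07 in SOL and -0.89 in HRT, all called. Bcs1l, which inserts the Rieske protein into complex III, had -1.12 in EDL and -0.94 in SOL, both called. Coa5, which is needed to build complex IV, had -0.80 in EDL and -0.94 in SOL, both called.

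Regulators of these genes were called in both directions in EDL. Of 20 measured, 6 were lower and 5 higher in EDL, where 11.6% of all genes were called lower and 10.7% higher, 3 were lower and 1 higher in SOL, where 8.66% and 5.06% were, and 0 were called in HRT (medians of 0.11, 0.01 and -0.05). Ppargc1a, a coactivator that drives mitochondrial biogenesis, was higher in EDL by 0.67 ± 0.18 (limma adjusted p = 0.00645), with 0.51 ± 0.30 in SOL and 0.06 ± 0.13 in HRT not called. Its relative Ppargc1b was lower, with -1.52 ± 0.23 in EDL (adjusted p = 2.31e-05) and -1.71 ± 0.26 in SOL, and had -0.80 ± 0.21 in HRT (adjusted p = 0.019). Mef2c, a muscle transcription factor, was lower, with -1.39 ± 0.21 in EDL and -0.72 ± 0.13 in SOL. Perm1, a muscle regulator that acts with Ppargc1a, had -1.21 ± 0.23 in EDL and -0.97 ± 0.24 in SOL, both called.

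Factors that bind the motifs searched above were measured too. Esrra, the oestrogen-related receptor alpha, was lower in EDL, with -0.71 ± 0.11 (adjusted p = 4.01e-05) but had -0.24 ± 0.14 in SOL and -0.03 ± 0.12 in HRT, neither called. Nrf1 was higher in EDL by 0.63 ± 0.11 (adjusted p = 0.000144), with 0.38 ± 0.11 in SOL (adjusted p = 0.0143). Gabpa, the subunit of GABP that binds DNA, had 0.18 ± 0.07 in EDL and was not called. Tfam, which packs and transcribes mitochondrial DNA, had -0.46 ± 0.12 in EDL (adjusted p = 0.00359), -0.38 ± 0.13 in SOL and -0.40 ± 0.13 in HRT, of which only EDL was called.

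Of 21 other mitochondrial proteins 10 were called lower and 1 higher in EDL (11.6% and 10.7% of all genes). In SOL 8 were lower and 1 higher (8.66% and 5.06%). In HRT 1 was lower, near the share of all genes (3.04%). Ckmt2, the creatine kinase of muscle mitochondria, had -1.23 in EDL and -0.85 in SOL, both called. Phb and Slc25a11, a prohibitin and the oxoglutarate carrier, had -0.90 and -0.81 in EDL. Phb2, the partner of Phb, was the 1 gene higher in EDL, by 0.33 (adjusted p = 0.00413).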

How the data were processed

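RNA of EDL, SOL and HRT was measured on 58 Affymetrix Mouse Gene 1.1 ST arrays. The values, as deposited by the authors, come from RMA (version not given in the sources used here), which corrects background, quantile-normalizes arrays and summarizes probes, and are log2 intensities. Quantile normalization forces 1 distribution on all arrays, so a shift of most genes could not be seen. The number of arrays limits the precision. The table has 35556 probe sets, of which 21218 with exactly 1 symbol were averaged into 18820 genes, and the 43 genes take 70 of them. Probe sets with several symbols were left out. Groups follow the labels, which name 1 mouse per sample.

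limma 3.58.1 in R 4.3.3 was run on each tissue with all 4 groups and a trended prior (Benjamini-Hochberg over all genes, threshold 0.01). Tissues were compared in 1 fit of 58 arrays with the mouse as a random block (correlation 0.137). Ratios of gene pairs were tested with exact two-sided permutation tests in scipy 1.17.1, adjusted over 7 pairs with a threshold of 0.05. The fits were tested on simulated data with known changes. The 43 genes and all lists were chosen with earlier results of these data known. Named genes are, in each complex, the 3 with the smallest p of T against C in EDL and the 1 with the smallest in SOL and in HRT, both members of each isoform pair, the gene nearest to a training difference, up to 3 of each list, and Ppargc1a, Ppargc1b, Esrra, Nrf1 and Tfam in any case. Uqcrc1, Atp5mpl, Atp5d, Cox7a2l, Gabpa, Phb2, Myl4, Myl7, Tnnt2, Myh7, Ucp1, Cidea and Ndufa7 were added after their values were seen. Alternatives were another prior, the intensity-based moderated t, fits of other array sets, other scalings, filters, single probe sets, a replicate block, the suffix in the array description as a covariate, and leaving out each replicate.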

Additional observations from a re-analysis of the deposited data

Results flagged for a closer look

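Among the 25 genes named by rule, groups of 5 or 6 arrays were searched for an array far from the others, and 11 were found in 200 groups. Chance alone would mark about 1 in 20 groups. In EDL, replicate 3 of T lay above the other 5 T arrays for Uqcrfs1 (9.98, others 9.51 to 9.68), Uqcr11 (9.33, others 8.50 to 8.70) and Cox7a2 (9.20, others 8.62 to 8.75), and replicate 2 of T for the dim Cox4i2 (5.25, others 4.74 to 4.88). Atp5g2 had a low array in 3 SOL groups: replicate 4 of T + WBV (10.91, others 11.16 to 11.18), replicate 2 of T (10.88, others 11.18 to 11.26) and replicate 2 of C + WBV (10.54, others 11.03 to 11.18). Single low arrays were replicate 2 of C in SOL for Cox4i1 (10.08, others 10.35 to 10.49), replicate 2 of C + WBV in SOL for Cox6a1 (7.20, others 7.61 to 7.83), replicate 4 of C + WBV in SOL for Cox6b2 (3.71, others 4.23 to 4.39) and replicate 4 of C + WBV in EDL for Cox8b (11.64, others 11.84 to 11.94). The cause was not tested.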

How the results depend on the processing

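Counts of the 43 genes lower in T than in C in EDL kept to 31 to 34 in all settings run. In a fit of all 58 arrays the counts in SOL were 20 for T against C, 9 for T + WBV against C and 8 for T + WBV against C + WBV, and with the mouse as a random block 21, 13 and 11. T + WBV against C in SOL had 1 and gave 5 among genes above the median level and 0 with 1 prior variance, with the suffix covariate, with single probe sets and with a replicate block. For T against C in HRT the 8 became 0 with 1 prior variance and in both fits of 58 arrays, and 4 after a second quantile normalization and with single probe sets. That normalization called 2 genes higher in EDL, Atp5g2 and Cox6a2. With only the 15 C arrays, 3 genes were lower in SOL than in EDL and 29 higher in HRT than in EDL. With medians, the ratio of Cox6b2 to Cox6b1 in HRT was -0.049 in T minus C, against 0.045 with means.

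Leaving out 1 array gave, for genes lower in EDL, 5 to 26 in T + WBV against C and 4 to 24 in T + WBV against C + WBV, with 0 to 1 higher in the second. In SOL it gave 6 to 19 in T against C, 0 to 9 in T + WBV against C and 0 to 7 in T + WBV against C + WBV. In HRT it gave 0 to 4, 0 to 15 and 0 to 9. Genes higher in HRT were 9 to 17 against EDL and 12 to 21 against SOL. Pair ratios in EDL ranged over 0.20 to 0.34 (Cox4i2 to Cox4i1), 0.22 to 0.40 (Cox6b2 to Cox6b1) and -0.58 to -0.38 (Cox7a1 to Cox7a2), in SOL over 0.11 to 0.24 (Cox6a2 to Cox6a1) and -0.32 to -0.21 (Cox8b to Cox8a), and in HRT over -0.091 to 0.13 (Cox6b2 to Cox6b1). The causes were not tested.

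Replicate numbers do not mark matched mice, and same-numbered arrays had mean correlations of -0.002, 0.010 and -0.027 in EDL, SOL and HRT, with 7 of 23, 9 of 23 and 1 of 12 arrays closest to their own number. With the replicate block, genes lower in T against C were 33, 7 and 6. For the named genes called in T against C, 50 of 618 values recomputed under these settings missed the threshold and 0 changed sign. Apart from Atp5g1 in EDL after the second quantile normalization (-0.08), the lost calls were all in HRT.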
